A study of Rattus norvegicus with 4 samples.

Results

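The genes described here are 8 transcription factor genes of the macrophage lineage (Spi1, Cebpa, Cebpb, Maf, Pparg, Runx1, Bhlhe41 and Bhlhe40) and Csf1r, the receptor gene for macrophage colony-stimulating factor. They were chosen as a list of names and then found on the array by matching each probe's accession to the RefSeq gene table of the rat. Of these 9 genes, 8 had a named probe, with 12 probes in 30 spots per array, out of 16581 genes and 21109 named probes in all. No accession matched Bhlhe41, which therefore has no value below. All samples were NR8383 cells, a rat alveolar macrophage line started from lung lavage. They were at 20 passages and had spent 4 h with NM403, a carbon nanotube of the multi-walled kind, dosed by surface area at 0.8 cm²/cm². The 4 arrays carried RNA of 4 samples labelled as biological replicates of this 1 exposed group, and whether any of them share a culture or a day is not stated in the labels. Unexposed cultures are named in the design text but were not analysed here, so no value below is a response to NM403.

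Macrophage identity rests on a small set of transcription factors that bind side by side in myeloid enhancers. Spi1 is the ETS factor at the centre of this set, and it acts with C/EBP and Runx factors at the gene for the growth factor receptor Csf1r, through which macrophages receive survival signals. Pparg and the C/EBP factors are tied to the lipid-handling programme of alveolar macrophages in the mouse. In the same species Maf restrains macrophage self-renewal, and Bhlhe40 with Bhlhe41 sustains it.

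Between 45.9% and 50.8% of the 58717 non-control spots of an array were well above background, and the negative control spots had a median signal of 8.36 to 11.99. The arrays fell into pairs: across 7937 genes, Pearson's r reached 0.996 for replicates 1 and 3 and 0.992 for replicates 2 and 4, where every other pairing gave 0.967 to 0.970 (a correlation over genes, which are no independent replicates). An SD over these 4 arrays thus mixes a small difference within the pairs and a larger one between them, and n = 4 below counts arrays by their labels. Of 10 macrophage markers, 9 were detected on all arrays, the exception being Adgre1. Of the measured markers of other cells, 0 of 7 lung epithelial, 1 of 6 neutrophil, 2 of 4 B cell, 2 of 6 T cell, 2 of 4 adipocyte and 1 of 5 mast cell and megakaryocyte markers were. The lymphocyte genes detected were Pax5, Ebf1, Cd3d and Lck, with mean levels of -3.38, -3.41, -3.97 and -4.09, while Cd79b, Cd3e, Cd3g, Cd2 and Cd5 were not well above background on any of the arrays. The adipocyte markers detected were Cidec and Retn, at mean levels of -1.26 and 5.36. Their part in the members' levels was not tested. Of 5 measured alveolar macrophage markers 3 were detected, namely Siglec5, Fabp4 and Fabp5, while Marco and Car4 were not.

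The lineage genes were mostly present. Of the 8 measured genes, 7 were well above background on all 4 arrays and 1, Cebpa, was so on none. Over all measured genes, 47.9% passed on each of the arrays and 40.4% passed nowhere. RNA came from whole cultures, so fewer cells with a transcript and less of it per cell cannot be told apart. A level below is the log2 signal of a probe minus that array's 75th percentile over probes detected on every array. It compares 1 probe across arrays and does not rank genes.

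**Figure D1:**
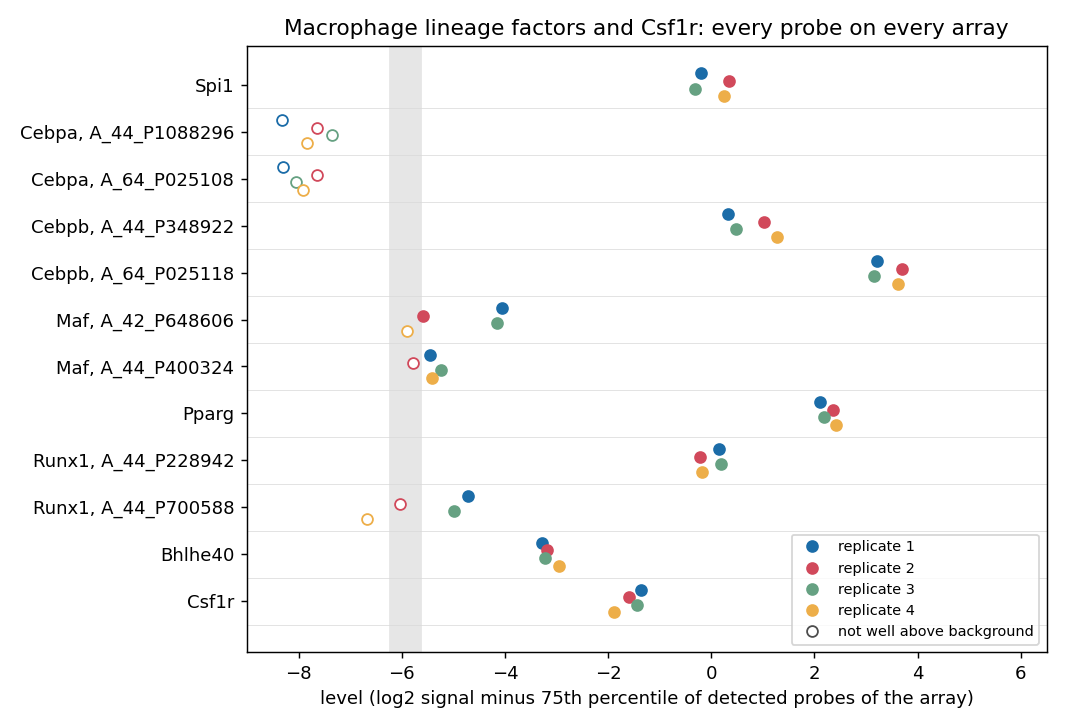
Level of each of the 12 probes (rows, named by gene and probe where a gene has 2) on the 4 arrays (colours), on the log2 scale relative to the 75th percentile of detected probes of the same array. Filled points were well above background and open points were not; the grey band spans the lowest levels called well above background, -6.23 to -5.62 over the arrays. Both Cebpa probes lie left of the band on every array.

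Spi1, the ETS factor required for myeloid development, was measured by 1 probe. Its signal was 2377, 3199, 1806 and 3290 on replicates 1 to 4, which gave levels of -0.19, 0.35, -0.32 and 0.25. Replicates 2 and 4 were both above replicates 1 and 3. The mean level was 0.02 ± 0.33 (SD, n = 4), with a 1.59-fold range. Of all genes detected on all arrays, 69.0% had a smaller SD.

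The 2 C/EBP members differed in whether they could be detected at all. Cebpb, an inducible factor of the acute inflammatory response, is represented by a probe printed 10 times per array. That probe had a signal of 25132, 32531, 20229 and 34316 on replicates 1 to 4. The levels were 3.21, 3.69, 3.16 and 3.63, with a mean of 3.42 ± 0.27 (SD, n = 4). Its kept spots did not overlap between the pairs of arrays. They ran from 3.603 to 3.83 on replicate 2 and from 3.56 to 3.67 on replicate 4. Those of replicate 1 ran from 3.14 to 3.38 and those of replicate 3 from 3.03 to 3.25. Of all genes whose brightest probe was detected on all arrays, 47.2% had replicates 2 and 4 both above replicates 1 and 3. The share of repeated probes whose spots did not overlap was not computed. The median SD among the spots of this Cebpb probe within an array was 0.0624, so the SD between arrays was 4.41 times as large on this scaling. With quantile normalization the levels were 3.41, 3.53, 3.31 and 3.44, an SD of 0.0904, and replicates 1 and 4 then lay close together. The second Cebpb probe, printed once, read 0.32, 1.02, 0.48 and 1.28, again with replicates 2 and 4 highest, and had a wider range of 1.96-fold against 1.44-fold for the repeated probe.

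**Figure D2:**
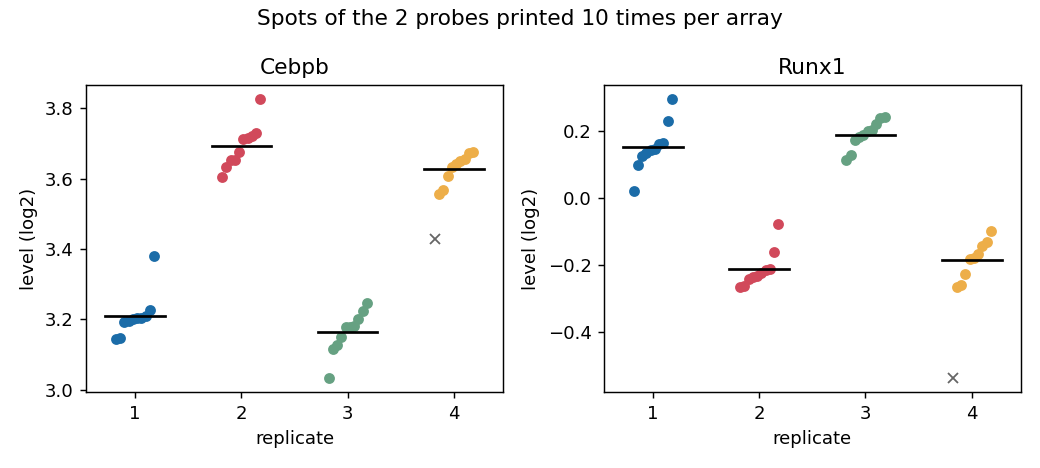
Level (log2, relative to the 75th percentile of detected probes) of each spot of the Cebpb and Runx1 probes that were printed 10 times, by replicate; lines are means of the kept spots and crosses are the spots left out as outliers, 1 per gene on replicate 4. The spots of replicates 2 and 4 lie above those of replicates 1 and 3 for Cebpb and below them for Runx1 on this scaling.

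Cebpa, which drives the granulocyte and monocyte fate of progenitors, was not well above background with either of its 2 probes. The probe A_44_P1088296 had a signal of 8.51, 12.5, 13.8 and 12.1 on replicates 1 to 4. The probe A_64_P025108 had 8.59, 12.6, 8.49 and 11.5. The 95th percentile of the 308 negative control spots was 12.6, 17.6, 14.0 and 19.8 on the same arrays, above both probes on each of them. The lowest levels called well above background were -6.23, -6.07, -5.85 and -5.62, so Cebpa has only these levels as bounds, and no difference between arrays can be read from it. The software's weaker flag, positive and significant, was set for 3 of the 4 spots of the first probe and for 1 of the 4 of the second.

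The promoters of these 2 paralogous genes are shown because Cebpb was detected with both of its probes and Cebpa with neither. They are RefSeq sequences of rat build GRCr8, from 250 bases before to 50 bases after the annotated start, written 5′ to 3′ on the gene's strand. Capitals mark TATAAA, which 14.2% of 33469 promoters of this length held on either strand.
Cebpb, chr3:176816755-176817054, plus strand: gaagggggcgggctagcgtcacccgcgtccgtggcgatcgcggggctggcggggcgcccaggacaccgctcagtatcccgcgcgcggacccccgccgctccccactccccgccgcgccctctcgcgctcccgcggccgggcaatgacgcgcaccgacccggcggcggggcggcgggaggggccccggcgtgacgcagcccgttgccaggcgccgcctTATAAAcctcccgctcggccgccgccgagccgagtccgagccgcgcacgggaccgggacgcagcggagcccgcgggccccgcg
Cebpa, chr1:96896334-96896633, plus strand: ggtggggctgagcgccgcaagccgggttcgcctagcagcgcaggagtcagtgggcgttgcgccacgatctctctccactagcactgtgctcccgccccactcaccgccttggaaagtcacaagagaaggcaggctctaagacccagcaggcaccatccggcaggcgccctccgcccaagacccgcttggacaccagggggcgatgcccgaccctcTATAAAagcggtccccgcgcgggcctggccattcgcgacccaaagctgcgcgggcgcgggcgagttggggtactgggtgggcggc
Both held 1 TATAAA, starting 33 bases before the start in Cebpb and 35 in Cebpa. Their G and C content was 81.0% in Cebpb and 68.7% in Cebpa, against a median of 51.7% over all promoters. Neither held GAGGAA, a form of the Spi1 motif (27.6% of promoters, both strands), or TTNCNNAA, a loose C/EBP motif (41.3%). Such matches describe letters and not binding. A link of these letters or of the G and C content to detection was not tested.

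Runx1, the core-binding factor that opens myeloid loci to other factors, ran opposite to Spi1 and Cebpb on this scaling. Its repeated probe had a signal of 3016, 2172, 2573 and 2444 on replicates 1 to 4. The levels were 0.15, -0.21, 0.19 and -0.18, with a mean of -0.01 ± 0.21 (SD, n = 4) and a range of 1.32-fold. Its kept spots lay between 0.02 and 0.30 on replicate 1 and between 0.11 and 0.24 on replicate 3. They lay between -0.27 and -0.08 on replicate 2 and between -0.27 and -0.10 on replicate 4, so the pairs did not overlap. Replicates 2 and 4 were both below replicates 1 and 3 in 34.5% of all genes whose brightest probe was detected on all arrays. The SD of this Runx1 probe between arrays was 3.77 times its median spot SD of 0.0568. With the 75th percentile over all non-control probes in place of the detected ones, however, Runx1 was level, at 3.35, 3.34, 3.36 and 3.36, an SD of 0.0091. A second Runx1 probe was well above background on replicates 1 and 3 only. It read -4.71 and -4.98 there, and -6.03 and -6.67 on replicates 2 and 4.

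Maf, a bZIP factor of mature tissue macrophages, was near the detection limit. Each of its 2 probes was well above background on 3 arrays, and the array that missed differed. The probe A_42_P648606 read -4.05, -5.59, -4.16 and -5.89 on replicates 1 to 4 and was not called on replicate 4. The probe A_44_P400324 read -5.45, -5.78, -5.24 and -5.41 and was not called on replicate 2. Maf therefore counts as detected on all arrays only because either probe was enough. No spread is given for either probe, since its lowest array was not well above background.

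Pparg, the lipid-sensing nuclear receptor, was bright on all arrays. Its single probe had a signal of 11741, 12973, 10243 and 14867, and levels of 2.11, 2.37, 2.18 and 2.42 on replicates 1 to 4. The mean was 2.27 ± 0.15 (SD, n = 4) and the range 1.24-fold. Replicates 2 and 4 were again the higher ones. With the 75th percentile over all non-control probes the SD was 0.356 and the range 1.58-fold. The order was lost with quantile normalization, where the levels were 2.26, 2.25, 2.31 and 2.28 and the SD 0.0253.

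Bhlhe40, a basic helix-loop-helix repressor that binds E-boxes, had a signal of 278, 275, 243 and 360 on replicates 1 to 4. The levels were -3.29, -3.19, -3.21 and -2.95, and the mean was -3.16 ± 0.15 (SD, n = 4). Replicates 1 to 3 lay within 0.10 of each other and replicate 4 above them, and without replicate 4 the SD was 0.0553. This grouping was not kept on other scalings: with the 75th percentile over all non-control probes replicates 1 to 4 read -0.09, 0.36, -0.05 and 0.60, an SD of 0.333, and with quantile normalization the SD was 0.3002, replicate 2 lying nearer to replicate 4 in both. The promoters of Bhlhe40 and of its unmeasured paralog Bhlhe41 are shown for the E-box CACGTG, in capitals, the palindromic site this family binds.
Bhlhe40, chr4:143174200-143174499, plus strand, GRCr8: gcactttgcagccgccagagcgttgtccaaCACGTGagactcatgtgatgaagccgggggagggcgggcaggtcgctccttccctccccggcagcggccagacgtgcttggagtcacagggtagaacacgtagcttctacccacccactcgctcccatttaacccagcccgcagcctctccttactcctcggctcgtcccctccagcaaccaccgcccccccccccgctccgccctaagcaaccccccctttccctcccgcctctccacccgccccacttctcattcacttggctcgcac
Bhlhe41, chr4:180569306-180569605, minus strand, GRCr8: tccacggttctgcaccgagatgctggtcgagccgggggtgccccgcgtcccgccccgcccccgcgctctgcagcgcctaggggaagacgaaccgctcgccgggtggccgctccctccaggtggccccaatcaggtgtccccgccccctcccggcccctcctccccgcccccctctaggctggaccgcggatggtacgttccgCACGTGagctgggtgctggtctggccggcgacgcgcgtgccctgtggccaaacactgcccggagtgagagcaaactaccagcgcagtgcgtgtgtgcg
Each held 1 such site, starting 220 bases before the start in Bhlhe40 and 48 in Bhlhe41. Of all promoters, 6.42% held CACGTG, and the other members' promoters in the table held 0. These matches describe letters in a window and not binding.

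Csf1r, the only growth factor receptor among the members, was read by 1 probe. Its signal was 1054, 830, 835 and 753 on replicates 1 to 4. The levels were -1.37, -1.60, -1.43 and -1.88, with a mean of -1.57 ± 0.23 (SD, n = 4) and a 1.43-fold range. Replicate 4 was lowest, and without it the SD was 0.113. Among the 24 neighbouring spots, 4-fold or higher signal than the median of the remaining arrays was seen at 2 spots in replicates 1 and 4 each, at 1 in replicate 2 and at 0 in replicate 3. An average spot had 0.0870 to 0.230 such neighbours. Their part in the reading was not tested. Its RefSeq promoter held GAGGAA at 2 places, both on the opposite strand, and TTNCNNAA at 1. Of all promoters, 27.6% held GAGGAA and 41.3% held TTNCNNAA. TGNGGT, a form of the Runx motif, was absent from it (47.1% of promoters). Among the other members, Pparg also held GAGGAA in 1 of its promoters and TTNCNNAA in another, with TGNGGT in each. These matches too describe letters and not binding.

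Of the 6 members whose brightest probe was detected on all arrays, 0 had a range above 2-fold, against 13.6% of all such genes. On this scaling only Spi1 reached a range of 1.5-fold, 1 of 6 members against 37.9% of those genes. With the 75th percentile over all non-control probes Cebpb, Pparg and Bhlhe40 reached it too, at 1.89-fold, 1.58-fold and 1.62-fold. The share of all genes at 1.5-fold was not computed for that setting. The 6 members had a median SD of 0.222, against 0.234 over all 7937 genes, so on this scaling their spread was near that of the typical gene. With quantile normalization the medians were 0.178 and 0.2465. In Spi1, Cebpb, Pparg and Bhlhe40, replicates 2 and 4 were both above replicates 1 and 3, an order that 47.2% of all genes had. In Runx1 and Csf1r both were below, as in 34.5% of all genes. With 6 genes, counts of 4 and 2 do not stand apart from these shares.

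**Figure D3:**
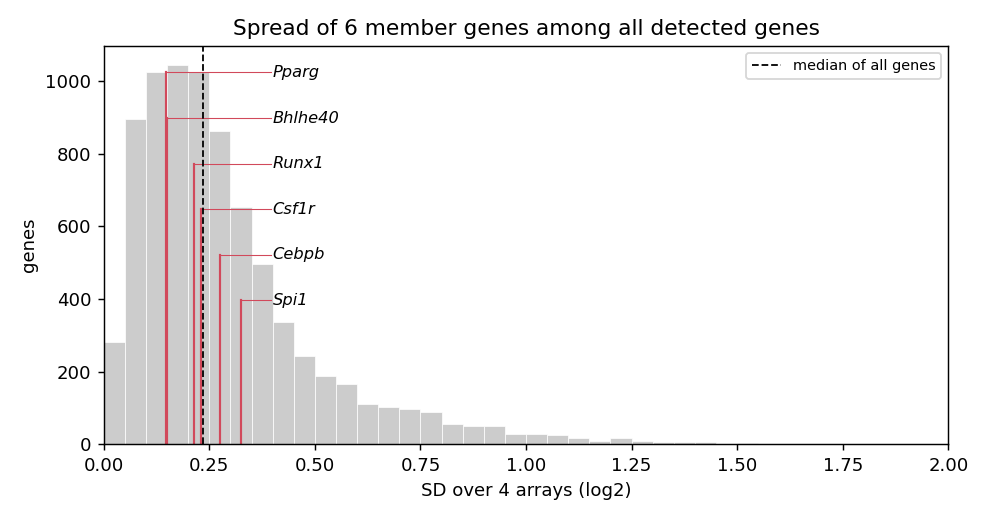
Histogram of the between-array SD (log2, n = 4) of the 7937 genes whose brightest probe was detected on all arrays (grey bars, genes per bin), with the 6 member genes as red lines and the median of all genes as a dashed line at 0.234. Pparg and Bhlhe40 lie to the left of the median on this scaling, Cebpb and Spi1 to the right, and Runx1 and Csf1r close to it.

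Because all these orders depend on how arrays are set against each other, the scaling was varied. Relative to the scaling used here, the 75th percentile over all non-control probes moved every gene by -0.17, 0.19, -0.20 and 0.18 on replicates 1 to 4, about their common mean. The array median moved them by -0.11, 0.11, -0.10 and 0.10. With the first of these, Spi1 spread over a 2.08-fold range and Cebpb over 1.89-fold, while Runx1 spanned 1.01-fold and Csf1r 1.22-fold, with replicate 2 then the highest for Csf1r. Spi1, Cebpb and Bhlhe40 kept replicates 2 and 4 above replicates 1 and 3 under all 4 scalings, by little for Cebpb with quantile normalization, and Csf1r kept replicate 4 lowest.

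**Figure D4:**
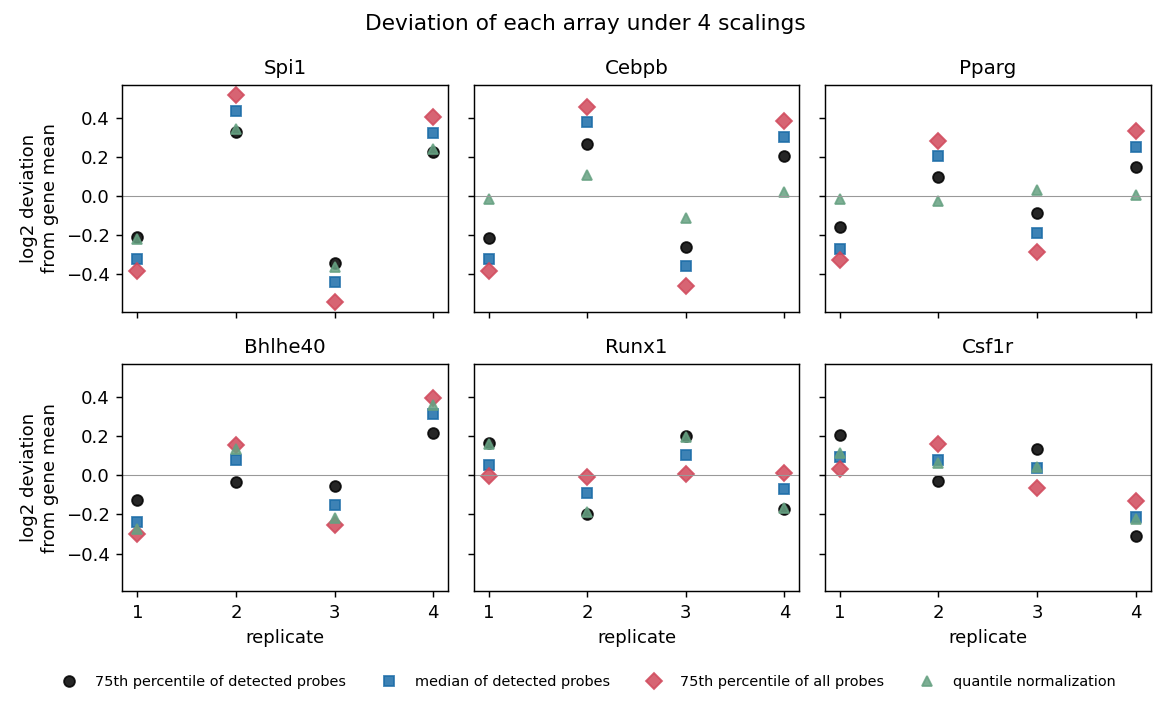
Deviation of each array from the gene's mean (log2) for 6 member genes by replicate, under 4 scalings of the arrays (symbols). Spi1, Cebpb and Bhlhe40 keep their order of high and low pairs, Pparg loses it with quantile normalization, and Runx1 is flat with the 75th percentile of all probes.

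Differences between 2 members on the same array do not depend on a common scaling. The 6 genes gave 15 such pairs. The centred difference of Spi1 against Runx1 was -0.38, 0.53, -0.54 and 0.40 on replicates 1 to 4, a 2.10-fold range, and under the other settings with all arrays its range was 1.97-fold to 2.12-fold. Spi1 against Csf1r read -0.42, 0.36, -0.48 and 0.54, a 2.02-fold range. Thus the ratios of Spi1 to both genes were higher on replicates 2 and 4. Spi1 against the repeated Cebpb probe changed by 1.102-fold, but by 1.44-fold against the second Cebpb probe and by 1.40-fold with quantile normalization, which does not move all genes alike. Runx1 against Csf1r changed by 1.24-fold. These ratios show unequal change and not which gene changed.

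Many other genes shared each pattern. By the root mean square difference of the 4 mean-centred levels, the genes most like Spi1 were Ddb1, Atp6v0d1 and Fkbp1a (0.0157 to 0.0179). Those most like Cebpb were Pde6d, C1qbp and Mrps16 (0.0076 to 0.0105), and those most like Pparg were Vdac3, Psma5 and Myo1g (0.0081 to 0.0100). Runx1 was most like Irf3, Nav3 and Gmfg (0.0038 to 0.0093), and Bhlhe40 most like Dpp9, Man2c1 and Synj2bp (0.0093 to 0.0110). Csf1r was most like Stard8 (0.0095), Pidd1 (0.0297) and Atl2 (0.0307). Among the 7931 genes compared, 1926 lay within 0.1 of Pparg and 1678 of Cebpb, and fewest, 281, lay within 0.1 of Csf1r. With 4 arrays in 2 pairs such likeness is common and says little about any 1 gene.

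The values of the genes around the members are on the first scaling, so the shifts given above apply to their orders between arrays too, and undetected means not well above background. The counts of genes detected on all arrays stand beside a share of 47.9% over all measured genes. Around Csf1r, the ligands were not seen. Of 10 measured colony-stimulating factor and related receptor genes, 2 were detected on all arrays. Csf1 and Il34, the ligands of Csf1r, were undetected on all arrays, as was Csf2, which encodes granulocyte-macrophage colony-stimulating factor. Csf2ra, the alpha chain of the receptor for that factor, read -0.14, -0.10, -0.14 and -0.10, while the shared beta chain gene Csf2rb was undetected throughout. Csf3 read -3.07, -3.00, -3.15 and -3.19, and its receptor gene Csf3r was not detected. Of the receptor kinases related to Csf1r, Kit and Pdgfra were undetected on all arrays. Pdgfrb was well above background on replicate 4 alone, at -3.602, with 1 of its 24 neighbouring spots raised there; the part of that neighbour was not tested.

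Relatives of the members filled in several families. Of 14 measured relatives, 9 were detected on all arrays. Cebpd, another inducible C/EBP gene, read 0.23, 0.84, 0.30 and 0.98 on replicates 1 to 4. Cebpe, a granulocyte factor, had a level of -0.89 ± 0.11 (SD, n = 4). Cebpg, a partner of other bZIP factors, read 0.41, 0.52, 0.29 and -0.50, a 2.03-fold range with replicate 4 lowest. Maff, a small Maf factor, had a level of -2.40 ± 0.07 (SD, n = 4). Runx2 read -1.93, -2.67, -1.74 and -2.15, and Runx3 was undetected on all arrays. Spib, the nearest relative of Spi1, and Nrl were also not detected.

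Genes for partners of the members were mostly detected, and several had wide ranges. Of 10 measured dimer and cofactor genes, 8 passed on every array. Among those 8 the median SD was 0.438, against 0.234 over all genes, and 4 had a range above 2-fold, against 13.6% of all genes. With other settings on all arrays that count was 2 to 4, against 9.4% to 18.5% of all genes. It was lowest with normexp, as was the share of all genes. Cbfb, the obligate partner of Runx factors, read -1.46, -3.15, -1.54 and -3.17, a 3.27-fold range with replicates 2 and 4 low. The co-repressor gene Ncor1 read -2.05, -3.18, -2.16 and -3.13. Rxra, the partner of Pparg, read -4.91, -5.01, -3.88 and -4.50, and its paralog Rxrb had a level of -1.71 ± 0.17 (SD, n = 4).

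Of 20 other macrophage regulators, 15 were detected on all arrays. The widest spreads were those of Mitf, Zeb2 and Tfec, all lower on replicates 2 and 4. Zeb2, which maintains macrophage identity in the mouse, read 1.32, -0.46, 1.52 and -0.39, and Tfec, a relative of Mitf, read 0.18, -1.10, 0.18 and -1.18. Irf8, a factor of monocyte development, Klf2, Id3 and the peritoneal macrophage factor Gata6 were undetected on all arrays. Id2, Egr2 and Lmo2 had the smallest spreads, with SDs from 0.142 to 0.162. Of these, Lmo2 was near the lowest levels called well above background, at -4.99, -5.33, -5.23 and -5.15 on replicates 1 to 4. Of 14 measured factors of progenitors and other lineages, 4 were detected on all arrays (Pax5, Ebf1, Irf4 and Batf3), 5 on some and 5 on none, the last being Gfi1, Gfi1b, Tal1, Bcl11b and Meis1.

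Known targets were nearly all present. All 17 measured myeloid genes known as targets of Spi1 and C/EBP factors were detected on all arrays, against 47.9% of all genes. Their median SD was 0.225. This list is not separate from the macrophage markers above: Cd68, Ptprc, Itgam, Itgb2, Tyrobp, Fcer1g, Lyz2 and Cd14 are in both. Ptprc, with the widest spread of the 17, read 2.163, 0.775, 2.111 and 0.81, a 2.62-fold range with replicates 2 and 4 low. Coro1a, a leukocyte actin regulator, read 0.15, 1.02, 0.15 and 1.13. The lipopolysaccharide co-receptor gene Cd14 read -3.94, -3.37, -4.05 and -3.23. Fcgr2b, an inhibitory Fc receptor gene, had a level of 1.46 ± 0.06 (SD, n = 4). Replicates 2 and 4 were both above replicates 1 and 3 in 11 of the 17, against 47.2% of all genes. They were both below in 6, against 34.5% of all genes. Among 13 measured Pparg targets, 11 were detected. The exceptions were the adipocyte hormone gene Adipoq and Pdk4. Lpl, the lipoprotein lipase, had a level of 0.77 ± 0.05 (SD, n = 4). Plin2, which coats lipid droplets, read 2.12, 2.68, 2.01 and 2.75, and the fatty acid carrier gene Fabp4 read 0.09, -0.78, 0.18 and -0.68, so that the ratio of Plin2 to Fabp4 was higher on replicates 2 and 4 than on replicates 1 and 3.

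Of 17 measured genes of Csf1r signalling, 13 were detected on all arrays. Sos1, a Ras exchange factor, read -2.62, -3.99, -2.28 and -3.65, the widest spread in this list, and Akt1 had a level of -0.13 ± 0.06 (SD, n = 4). The kinase gene Src and the cytokine inhibitor gene Socs1 were undetected on all arrays, while the Src-family genes Lyn and Fyn had levels of 1.63 ± 0.13 and -2.20 ± 0.08 (SD, n = 4 each). Of 10 measured circadian genes, 7 were detected on all arrays. Bmal1 and Nr1d1 were undetected on all arrays, and Nr1d2 read -4.24, -5.58, -4.14 and -5.45.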

How the data were processed

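RNA of 4 NM403-exposed NR8383 samples, biological replicates per the labels, went to 1 Agilent rat array each, with Cy3 alone; all arrays were on 1 slide. Agilent Feature Extraction (11.0.1.1 in the submitters' processing notes) produced the deposited intensity values. In the column used, background subtraction and spatial detrending had been done within an array, with no normalization between arrays, per the file headers. The array design names build rn4, for which no coordinates are given. Other deposited columns were the spot's error and median intensity, the local background, and flags (score 0 or 1) for outliers, saturation and signal well above background.

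Control and outlier spots (623 to 1016 per array) were left out, and 0 spots were saturated. Repeat spots entered as their mean log2 value. A probe printed several times was detected where over 50% of its kept spots were well above background, and a gene where any of its probes was. As 34.2% of probes were detected on all arrays, each array was scaled on their 75th percentile, which hides a change in total messenger RNA. A gene's level was that of its brightest probe. With 1 group there was no contrast, so no test between groups was run (Dixon's ratio only marked a single array apart), and precision is limited by the number of arrays. SDs, likeness and Dixon's ratio were tested on simulated data with known answers, in which arrays varied independently and not in pairs. The members and gene lists were chosen with earlier results of these data known. From each list the text names genes with the 3 largest or 3 smallest SDs, or those not detected, and every measured gene of the colony-stimulating factor list; some genes that this rule names are not reported here. Promoters came from RefSeq (GRCr8), which had 8 of the 9 members; the table is written on the gene's strand. Alternatives were other detection rules, scalings (the array median, all non-control probes, quantile normalization), normexp with an offset of 50, the mean over probes and leaving out each replicate; settings for pairs of members, lists and single arrays were chosen after seeing the data. Python 3.11.15, numpy 2.4.6, pandas 2.3.3, R 4.3.3 and limma 3.58.1 were used.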

Additional observations from a re-analysis of the deposited data

Results flagged for a closer look

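Of 54 named genes outside the marker lists whose brightest probe was detected on all arrays, 1 had a single array far from the other 3. Jun, a subunit of AP-1 and a partner of C/EBP and Maf factors at shared sites, had a level of -0.62 on replicate 1, against -0.43 to -0.40 on the others. The gap to the nearest array was 0.852 of the whole range, past Dixon's 95% critical ratio for 4 values. Chance passes that ratio in about 1 of 20 groups of independent values. These arrays fell into pairs, so the rate may differ here. The whole range of Jun was 1.17-fold, and 0 of the 24 spots around it were raised on replicate 1. It depended on the scaling: the ratio was 0.307 when arrays were scaled on every non-control probe, 0.499 when scaled on their medians, 0.627 with quantile normalization and 0.442 with normexp, all short of the limit. With the mean over its probes replicate 3 was the array apart, at 0.722, also short of it. In no member gene did 1 array stand apart to this degree.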

How the results depend on the processing

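With the positive and significant flag 7 members were detected on all arrays, and 58.7% of all genes were. With the 95th percentile of negative controls as the limit the count was also 7, against 54.6% of all genes. It was 7 too with outlier spots kept (47.9% of all genes) and without any 1 replicate (48.0% to 49.1%). When every probe of a gene had to be detected it was 5, against 42.7% of all genes, Maf and Runx1 then dropping out. The median SD of members was 0.344 with the 75th percentile over all non-control probes, when that over all genes was 0.3535. Under the other settings with all arrays it was 0.178 to 0.257, against 0.209 to 0.298 over all genes. With quantile normalization it was 0.178 against 0.2465, and with the array median 0.257 against 0.298. Without 1 replicate the median SD of members ran from 0.213 to 0.231, against 0.228 to 0.233 over all genes. The number of members with a range above 2-fold was 1 of 6 (Spi1) with the 75th percentile over all non-control probes, against 18.5% of all genes. It was 0 with every other setting on all arrays, against 9.4% to 13.7% of all genes. Leaving out 1 replicate the count ran from 0 to 1, against 11.2% to 11.9% of all genes. The 1 was Maf without replicate 4, which then had a probe detected on every remaining array. Of 60 single-gene SDs under alternatives, 17 moved by over 1.5 times, among them all 6 genes with the 75th percentile over all non-control probes, whose shift between arrays is built into that setting. The planned match by gene name was not run, as the files used here hold no such column. No paired analysis was possible because there was 1 group. Signal over background limits Maf and the second Runx1 probe, which lay near the lowest called levels. It also limits Nr1d2, at -5.58 and -5.45 on replicates 2 and 4, where the lowest called levels were -6.07 and -5.62. Lmo2 was near them too, at -5.33 and -5.15 on the same arrays.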
